A study of Homo sapiens with 4 samples.

Results

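The 34 genes described here carry out or control the making of cholesterol and fatty acids, and all 34 were rows of a single-cell count table of 19238 genes. They were chosen by name, as 18 enzymes of the sterol pathway, 10 enzymes of fatty acid synthesis and 6 genes that control or carry sterols. The cells came from WM239A, a human melanoma line labelled as poorly metastatic, and from 3 sublines derived from it. Of these sublines, 113/6-4L is described as strongly prone to metastasis in the lung, while 131/4-5B1 and 131/4-5B2 are described as strongly prone to metastasis in the brain. The labels give no treatment, each line was 1 library, and every subline goes back to the same parental line.

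Cells build cholesterol from acetyl-CoA. The mevalonate steps yield farnesyl diphosphate, squalene synthase commits it to sterols, and a chain of enzymes in the endoplasmic reticulum turns lanosterol into cholesterol. Fatty acid synthesis draws on the same acetyl-CoA. Both branches are controlled by the SREBP transcription factors, which SCAP escorts to the Golgi for cleavage when sterols are low and which INSIG proteins hold back when sterols are high. On promoters these factors act together with NF-Y, which binds the letters CCAAT.

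Cell names in the table ended in 1 of 4 suffixes, and nothing in the labels or names tied a suffix to a line. The 4 groups of cells are therefore called barcode sets 1 to 4, no set is given a line's name, and no comparison of a subline with WM239A was made. The sets held 1779 to 2140 cells and 71182648 to 71915542 unique molecules (UMIs), so the totals were nearly level, the smallest being 99.0% of the largest. Per cell the median was 33152.5 to 41131 UMIs, highest in set 2, and the median mitochondrial share was 5.41% in set 1, against 6.73% to 7.12% elsewhere. Of the barcodes, 39 occurred under more than 1 suffix (78 of 8173 cells). Most melanocytic markers were present: PMEL stood at 2201 to 4883 CPM and MLANA at 2182 to 2795 CPM, where CPM is UMIs of a gene per 1000000 UMIs of the set. S100B stood at 1283 to 2864 CPM, DCT at 151 to 421 CPM, MITF at 196 to 267 CPM and SOX10 at 58.2 to 70.4 CPM. TYRP1, a further melanocytic marker, was nearly absent from sets 2 to 4, at 0.195 to 0.896 CPM, and stood at 9.37 CPM in set 1. Of the markers of other cell types, VWF, COL1A1, PTPRC, KRT14 and PLIN1 had at most 5 UMIs in any set, DCN reached 0.949 CPM and LUM 12.7 CPM in set 1, PDGFRB at most 0.195 CPM, and CD68, a lysosomal protein, 29.3 to 38.4 CPM. Their part in the values of set 1 was not tested. Intervals below are exact 95% intervals that cover counting error only, and with 1 library per set no test was run and no p-value computed.

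The promoters of sterol genes are shown first, and whether their motifs bear on the levels below was not tested. RefSeq windows of GRCh38.p14, from 250 bases before to 50 after the transcription start, were at hand for 30 of the 34 genes and not for ACAT2, FDFT1, SQLE and FASN. Each line gives the 200 bases before the start, 5′ to 3′ on the gene's strand, with CCAAT or its reverse complement ATTGG, and a TCACNCCAC sterol element where the search found it, in capitals. MSMO1 (chr4:165327469-165327668, plus strand), HMGCS1 (chr5:43313413-43313612, minus strand) and FDPS (chr1:155308666-155308865, plus strand) stand for genes that followed the rest of the sterol list. SREBF2 (chr22:41832905-41833104, plus strand) is the member with a TCACNCCAC match, and PMVK (chr1:154936720-154936919, minus strand) is a mevalonate enzyme that did not follow the others.
MSMO1: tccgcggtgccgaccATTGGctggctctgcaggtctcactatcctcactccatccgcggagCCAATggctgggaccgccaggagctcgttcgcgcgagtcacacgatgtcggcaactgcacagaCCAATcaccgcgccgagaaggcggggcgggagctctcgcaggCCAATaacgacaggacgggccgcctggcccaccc
HMGCS1: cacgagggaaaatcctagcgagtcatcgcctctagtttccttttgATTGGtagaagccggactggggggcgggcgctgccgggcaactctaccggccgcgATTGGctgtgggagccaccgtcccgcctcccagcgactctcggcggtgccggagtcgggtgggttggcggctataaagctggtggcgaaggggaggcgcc
FDPS: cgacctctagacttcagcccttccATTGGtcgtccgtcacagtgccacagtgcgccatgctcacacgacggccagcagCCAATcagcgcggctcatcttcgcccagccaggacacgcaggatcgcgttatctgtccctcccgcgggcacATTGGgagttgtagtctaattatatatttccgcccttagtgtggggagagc
SREBF2: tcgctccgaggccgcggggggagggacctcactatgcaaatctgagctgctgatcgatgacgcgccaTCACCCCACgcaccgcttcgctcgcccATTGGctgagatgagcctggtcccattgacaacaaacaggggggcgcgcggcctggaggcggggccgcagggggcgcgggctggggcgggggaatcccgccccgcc
PMVK: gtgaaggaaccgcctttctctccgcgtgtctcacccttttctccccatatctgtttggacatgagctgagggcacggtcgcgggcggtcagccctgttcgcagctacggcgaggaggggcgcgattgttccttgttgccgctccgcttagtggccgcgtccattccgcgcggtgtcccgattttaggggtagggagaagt
MSMO1 held 4 CCAAT boxes in these letters, at 185, 139, 76 and 34 bases before the start, FDPS held 3, HMGCS1 held 2, SREBF2 held 1 and PMVK held none. Other sterol genes broke this order. NSDHL and EBP, with 5 and 3 boxes in a window, missed the limit used below for following the list, while LSS and SC5D, with 1 each, met it.

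Searched on both strands of every window, CCAAT occurred in 13 of 15 sterol genes with a window (86.7%), in 7 of 9 fatty acid genes (77.8%) and in 3 of 6 control genes. The same letters occurred in 44.2% of 5683 genes that had a window and at least 10 CPM in a set, and in 39.7% of all 27305 genes with a window. Members had 1 to 3 windows, and for every gene the window with the most boxes was counted. IDI1, ACACA and FADS2 had no box in their first window and 3, 2 and 1 in another. At least 2 boxes in a window were present in 10 of the 15 sterol genes (66.7%), against 17.2% of the 5683 genes. MVK, which phosphorylates mevalonate, and NSDHL, a sterol dehydrogenase, had the most, with 5 each. TCACNCCAC occurred in 1 of the 30 windows, that of SREBF2, which encodes an SREBP factor, against 1.53% of the 5683 genes, and it overlapped no CCAAT box. These are matches of letters in short windows and not measured binding sites.

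UMIs of all 34 genes were found in all 4 sets. Of the 34 genes, 31 reached 10 CPM in at least 1 set, as did 7421 genes of the table. The remaining 3 were CYP51A1, the lanosterol demethylase, with 3.85 to 6.23 CPM, TM7SF2, a sterol reductase, with 1.97 to 3.32 CPM, and ELOVL6, an elongase of saturated fatty acids, with 6.27 to 8.36 CPM. The counts read 3′ ends and levels of different genes are not set against each other here. No member differed 2-fold between its highest and its lowest set on the log2(CPM + 1) scale, in a table in which 5.85% of the 7421 genes did. At 1.5-fold there were 4 of 31 members, HMGCS1, FDFT1, FADS2 and STARD4, against 17.3% of all genes, with SCD just short of it on this scale, and at a difference of 0.32 on that scale 18 of 31 members against 52.1%. Folds printed below are plain ratios of CPM. The median difference between highest and lowest set was 0.35 on the log2 scale over the members and 0.33 over all genes, so the genes of lipid synthesis differed between the sets about as much as other genes.

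**Figure D1:**
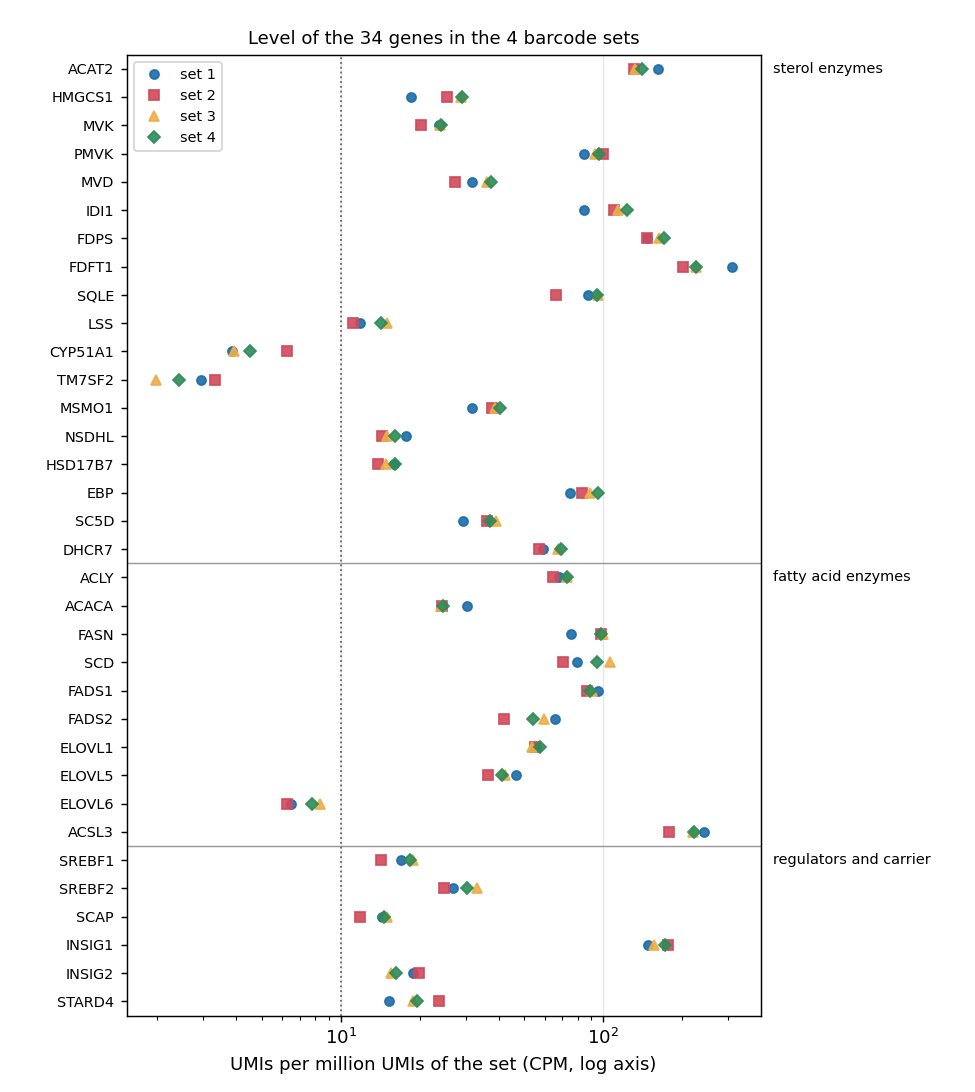
Level of each of the 34 genes in the 4 barcode sets, in CPM on a log axis, with the sterol enzymes in pathway order, then the fatty acid enzymes, then the control and carrier genes. Each symbol is 1 set and the dotted line marks 10 CPM. The 4 symbols of a gene lie close together, and the widest gaps among genes above 10 CPM are those of HMGCS1, FDFT1, FADS2 and STARD4.

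Among the mevalonate enzymes, HMGCS1, which condenses acetyl-CoA units into HMG-CoA, stood at 28.9 CPM in set 4, 28.8 CPM in set 3, 25.3 CPM in set 2 and 18.5 CPM in set 1. Set 4 was 1.56-fold above set 1 (1.46 to 1.67), while the counting intervals of sets 3 and 4 overlapped. IDI1, the isomerase of isopentenyl diphosphate, followed the same order, with 123.6 CPM in set 4, 114.2 CPM in set 3, 110.4 CPM in set 2 and 84.2 CPM in set 1, a ratio of 1.47 (1.42 to 1.52) between set 4 and set 1. For these genes set 1 was low and the other sets lay closer together. FDPS, which makes farnesyl diphosphate, had the same order over a narrower range, 170.5 CPM in set 4, against 147.1 CPM in set 1, and in G1 cells alone that difference shrank to 0.02 on the log2 scale, against 0.21 in all cells. MVD, which decarboxylates mevalonate diphosphate, stood at 37.4 CPM in set 4, 36.1 CPM in set 3, 31.7 CPM in set 1 and 27.4 CPM in set 2. MVK ranged over 20.2 to 24.0 CPM, lowest in set 2. In G1 cells alone its log2 difference between sets 4 and 2 was 0.12, against 0.25 in all cells. PMVK, the kinase after MVK, went the other way, with 100.03 CPM in set 2, against 84.5 CPM in set 1 (1.18-fold, 1.14 to 1.23). ACAT2, which joins acetyl-CoA units at the start of the pathway, was highest in set 1, at 161.2 CPM, against 130.9 CPM in set 2 (1.23-fold, 1.20 to 1.27). Without strand, its reads cannot be told from those of SOD2 and TCP1, which overlap it on the opposite strand, and MVK overlaps MMAB in the same way. No source used here states whether the counting used strand.

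FDFT1, the squalene synthase, had the widest gap after HMGCS1 of the sterol enzymes that reached 10 CPM. It stood at 308.9 CPM in set 1, 225.0 CPM in set 4, 224.9 CPM in set 3 and 202.2 CPM in set 2, a 1.53-fold difference (1.5 to 1.56) between sets 1 and 2. Set 1 was high for FDFT1 and low for HMGCS1. SQLE, the squalene epoxidase that follows FDFT1, had 96.0 CPM in set 3, 94.7 CPM in set 4, 87.7 CPM in set 1 and 66.2 CPM in set 2 (1.45-fold between sets 3 and 2, 1.4 to 1.5). LSS, which closes the sterol rings, showed the same order at 11.2 to 15.0 CPM. Of the enzymes that remodel lanosterol, MSMO1 and EBP were highest in set 4, at 40.6 and 96.0 CPM, and lowest in set 1, at 31.7 and 74.6 CPM. SC5D reached 39.2 CPM in set 3, against 29.2 CPM in set 1. In G1 cells alone the log2 differences of MSMO1 and EBP between sets 4 and 1 were 0.22 and 0.19, against 0.36 for both in all cells. DHCR7, a closing reductase of the pathway, ranged over 57.1 to 69.0 CPM, NSDHL over 14.3 to 17.8 CPM and HSD17B7, a ketoreductase, over 13.9 to 16.1 CPM. The log2 difference of HSD17B7 between sets 4 and 2 was 0.21, but -0.02 in G1 cells and -0.04 in thinned cells.

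The fatty acid enzymes were mostly lowest in set 2, which held the lowest level for 6 of the 9 that were measured, meaning at 10 CPM or more in a set. FADS2, a desaturase of polyunsaturated fatty acids, stood at 65.8 CPM in set 1, 59.3 CPM in set 3, 54.2 CPM in set 4 and 41.9 CPM in set 2, a 1.57-fold difference (1.5 to 1.65). SCD, the desaturase that makes oleic acid, had 105.8 CPM in set 3, 94.8 CPM in set 4, 79.9 CPM in set 1 and 70.2 CPM in set 2 (1.51-fold between sets 3 and 2, 1.45 to 1.56). Set 2 was lowest for both desaturases, but the highest set was not the same. FASN, the fatty acid synthase, had 99.98 CPM in set 3, 97.9 CPM in sets 4 and 2, and 75.6 CPM in set 1. ACACA, which makes malonyl-CoA for FASN, had 30.4 CPM in set 1, against 24.2 to 24.5 CPM elsewhere. Set 1 thus held the lowest level of FASN and the highest of ACACA. ACSL3, which activates fatty acids for lipid droplets, ranged from 242.2 CPM in set 1 down to 178.1 CPM in set 2, and ELOVL5, an elongase of polyunsaturated fatty acids, from 46.4 to 36.3 CPM in the same sets. ACLY, the source of cytosolic acetyl-CoA, ranged over 64.3 to 72.8 CPM, FADS1 over 86.5 to 95.3 CPM and ELOVL1 over 53.4 to 57.5 CPM. For FADS1 the log2 difference between sets 1 and 2 was 0.14, but 0.31 in G1 cells and 0.069 with TMM totals, a scaling that resists a few dominant genes. FADS1 and FADS2 overlap on opposite strands, and FADS2 shares its strand with the overlapping FEN1. How the counting dealt with reads from these overlaps is not stated and was not tested.

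Among the control genes, STARD4, a carrier of cholesterol in the cytosol, stood at 23.8 CPM in set 2, 19.5 CPM in set 4, 18.9 CPM in set 3 and 15.3 CPM in set 1 (1.55-fold between sets 2 and 1, 1.44 to 1.67). INSIG1, which is a target of the SREBP factors as well as their brake, had 176.3 CPM in set 2, 172.8 CPM in set 4, 156.4 CPM in set 3 and 148.4 CPM in set 1 (1.19-fold, 1.16 to 1.22). Both genes were highest in set 2 and lowest in set 1. INSIG2, the paralog of INSIG1, had 19.9 CPM in set 2, against 15.6 CPM in set 3. The factors and their escort had another order, highest in set 3 and lowest in set 2. SREBF2 reached 33.1 CPM in set 3, against 24.7 CPM in set 2 (1.34-fold, 1.26 to 1.42). SREBF1 stood at 18.9 CPM, against 14.3 CPM, and SCAP at 15.0 CPM, against 11.8 CPM, for the same 2 sets. SREBF1 overlaps RAI1 on the opposite strand.

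Over the 31 measured members, set 2 held the lowest level for 18 and set 4 for none, where over all 7421 genes set 2 was lowest for 28.7% and set 4 for 11.97%. Set 1 was highest for 8 members, against 44.9% of all genes. Summed over the branch, the sterol enzymes stood at 1237 CPM in set 4, 1197 CPM in set 3, 1195 CPM in set 1 and 1093 CPM in set 2, so that set 4 was 1.13-fold above set 2 (1.12 to 1.14). In G1 cells alone this difference was 0.066 on the log2 scale, against 0.18 in all cells, and G1 cells made up 20.8% of set 4 and 27.3% of set 2. The fatty acid enzymes summed to 777 CPM in set 3, 765 CPM in set 1, 761 CPM in set 4 and 661 CPM in set 2 (1.18-fold between sets 3 and 2, 1.16 to 1.19). The control genes summed to 272 CPM in set 4, against 241 CPM in set 1, of which INSIG1 made up 63.5% and 61.6%. Without INSIG1 the log2 difference between these sets was 0.10, against 0.18 with it. Within the sterol list, the 7 mevalonate enzymes summed to 621 CPM in set 4, against 551 CPM in set 1. The 11 enzymes from squalene on summed to 644 CPM in set 1, against 532 CPM in set 2. Set 1 was thus the lowest set for the first steps and the highest for the later ones, and FDFT1 alone made up 48.0% of the later steps in set 1 and 38.0% in set 2. Without FDFT1, a sum added after the values were seen, the later steps stood at 391 CPM in set 4, 381 CPM in set 3, 335 CPM in set 1 and 329 CPM in set 2, so set 1 was no longer the highest.

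The genes around the pathway, taken from lists of uptake, isoprenoid, other lipid and fatty acid oxidation genes, were read in the same way. FNTB, a subunit of protein farnesyltransferase, which uses the pathway's farnesyl diphosphate, was the 1 gene of these lists that differed 2-fold, with 23.6 CPM in set 1, against 9.62 CPM in set 3 (2.46-fold, 2.25 to 2.69). At 1.5-fold there were 2 of 10 uptake and efflux genes (NPC1, which exports cholesterol from lysosomes, and SCARB1, an HDL receptor), FNTB among 8 isoprenoid genes, 3 of 14 other lipid genes (ME1, MID1IP1 and FADS3) and 0 of 9 oxidation genes. NPC1 reached 25.3 CPM in set 4, against 16.5 CPM in set 2, and SCARB1 reached 86.7 CPM in set 4, against 57.4 CPM in set 2. ME1, which supplies NADPH, reached 27.8 CPM in set 1, against 15.6 CPM in set 3.

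Across the cell cycle the sterol branch was higher in S and G2/M cells than in G1 cells of the same set. Phases were assigned from scores of 40 S and 54 G2/M genes, none of them a member, after every cell had been thinned to 10000 UMIs. The sterol sum in G1, S and G2/M cells was 1092, 1278 and 1202 CPM in set 1, while set 2 had 987, 1146 and 1103 CPM. Set 3 had 1071, 1289 and 1161 CPM, and set 4 had 1034, 1309 and 1243 CPM. S over G1 was 1.17 (1.15 to 1.19), 1.16 (1.14 to 1.18), 1.20 (1.18 to 1.22) and 1.27 (1.24 to 1.29) in sets 1 to 4. In every set the order was S, then G2/M, then G1.

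Single sterol enzymes differed in how far they followed. A gene was called when it was higher, or lower, by at least 0.32 on the log2(CPM + 1) scale in each of the 4 sets. In S over G1 cells these were 4 of 16 measured sterol enzymes (ACAT2, IDI1, HSD17B7 and EBP), against 7.43% of 7337 genes that were called higher and 1.08% called lower, the phase genes being left out. In all 4 sets 13 of the 16 lay above 0, as did 2649 of the 7337 genes. The median over the sterol enzymes was 0.29 on the log2 scale, over the fatty acid enzymes 0.14, over the control genes 0.07 and over all genes 0.03.

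EBP, which shifts a double bond in the sterol rings, had 81.5, 85.8, 97.9 and 102.0 CPM in S cells of sets 1 to 4, against 58.4, 64.2, 65.3 and 66.8 CPM in G1 cells. HSD17B7 had 18.7, 15.0, 18.1 and 17.7 CPM in S cells, against 11.2, 11.1, 10.6 and 11.0 CPM in G1 cells. ACAT2 had 181.3, 139.3, 150.6 and 146.1 CPM in S cells, against 121.7, 102.6, 93.9 and 90.8 CPM in G1 cells. For these genes the S cells of all sets lay above the G1 cells of the same set. IDI1 had 97.1, 122.6, 129.3 and 138.9 CPM in S cells, against 73.5, 89.5, 101.5 and 97.1 CPM in G1 cells. FDFT1 was flat over the cycle, with 304.7, 201.6, 225.3 and 225.4 CPM in S cells and 312.2, 207.2, 230.4 and 229.7 CPM in G1 cells. It was the 1 sterol enzyme below 0 in all 4 sets, where 1762 of 7337 genes also lay. PMVK had log2 ratios between 0.02 and 0.09 in S over G1 cells.

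In G2/M over G1 cells ACAT2, HSD17B7 and EBP were called higher, 3 of 16 sterol enzymes against 9.25% of all genes, and none was called lower, against 2.94%. HMGCS1 and MSMO1, the methylsterol oxidase, dropped again after S. HMGCS1 had 17.0, 21.4 and 15.9 CPM in G1, S and G2/M cells of set 1, 25.6, 27.7 and 21.3 CPM in set 2, 29.2, 32.7 and 21.0 CPM in set 3, while set 4 had 26.8, 33.2 and 23.5 CPM. MSMO1 had 25.5, 33.3, 30.5 and 33.9 CPM in G2/M cells of sets 1 to 4, against 35.8, 42.1, 43.3 and 46.6 CPM in S cells. These were the 2 sterol enzymes called lower in G2/M over S cells, against 2.02% of all genes, and none was called higher, against 2.69%. G2/M cells were thus lowest of the phases for both genes in every set, while EBP, ACAT2 and HSD17B7 stayed above G1.

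**Figure D2:**
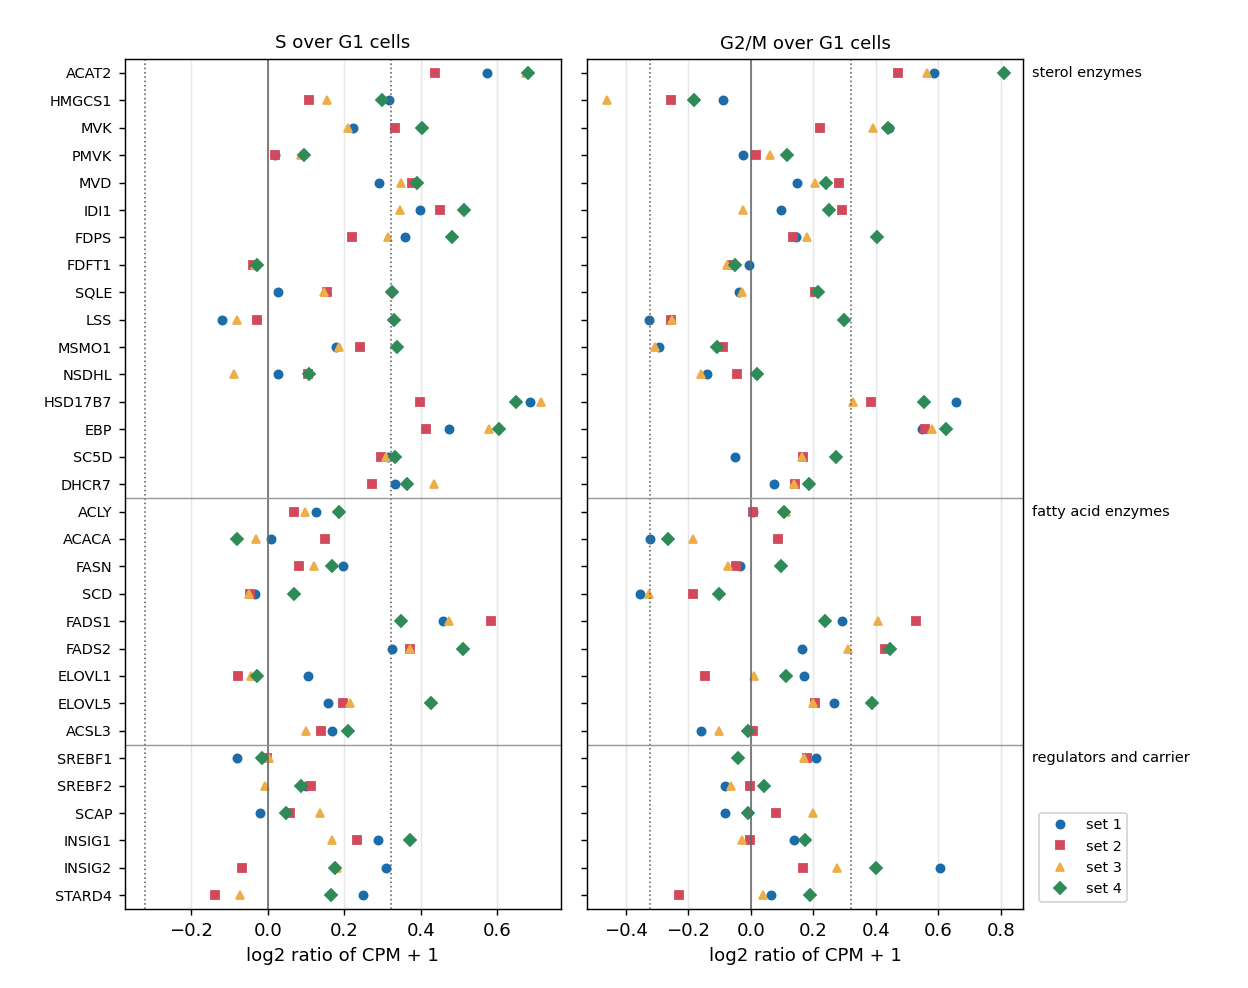
Log2 ratio of CPM + 1 for each of the 31 measured members in S over G1 cells (left) and G2/M over G1 cells (right). Each symbol is 1 barcode set, the solid line marks 0 and the dotted lines mark 0.32 up and down. ACAT2, HSD17B7 and EBP lie beyond the dotted line in both panels in all 4 sets, while HMGCS1 lies above 0 on the left and below 0 on the right.

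The fatty acid branch followed the cycle less far. Its sum was 727, 827 and 718 CPM in G1, S and G2/M cells of set 1, 618, 692 and 650 CPM in set 2, 741, 816 and 744 CPM in set 3, while set 4 had 694, 802 and 738 CPM. S over G1 was 1.10 to 1.16, and G2/M over G1 was 0.988 (0.966 to 1.01) in set 1 and 1.06 (1.03 to 1.09) in set 4, so the sum was raised in S and near its G1 level in G2/M. The median over sets of log2 G2/M over G1 was 0.04, and -0.0071 when totals left out mitochondrial and ribosomal protein genes. FADS1 and FADS2 were called higher in S over G1 cells, 2 of 9 against 7.43% of all genes, and none was called lower, against 1.08%. None was called in G2/M over G1 cells, where 9.25% of all genes were higher and 2.94% lower, or in G2/M over S cells, where 2.69% were higher and 2.02% lower. FADS1 had 108.6, 95.8, 99.9 and 95.5 CPM in S cells, against 78.8, 63.6, 71.6 and 74.9 CPM in G1 cells. FADS2 had 73.0, 44.0, 64.0 and 58.3 CPM in S cells, against 58.0, 33.7, 49.2 and 40.7 CPM in G1 cells. Neither call held when totals left out mitochondrial and ribosomal protein genes, and FEN1, which overlaps FADS2, is itself a gene of the S score. SCD was flat or lower, with 66.6, 64.9, 90.4 and 88.1 CPM in G2/M cells against 85.4, 73.9, 113.5 and 94.6 CPM in G1 cells of sets 1 to 4. ELOVL6, below the limit of 10 CPM, had 7.37, 7.65, 9.61 and 9.02 CPM in S cells, against 4.82, 4.47, 6.37 and 6.27 CPM in G1 cells.

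None of the 6 control genes was called between phases. Of all genes, 7.43% were called higher and 1.08% lower in S over G1 cells, and 9.25% and 2.94% in G2/M over G1 cells. In G2/M over S cells these shares were 2.69% and 2.02%. With so few control genes, the lack of calls is not read as particular to them. INSIG1 lay above 0 in S over G1 cells of all sets, with 162.8, 192.0, 166.9 and 188.7 CPM in S cells and 133.1, 163.1, 148.4 and 145.6 CPM in G1 cells. SREBF2 had 28.5, 25.9, 33.4 and 30.9 CPM in S cells and 26.5, 23.8, 33.6 and 29.0 CPM in G1 cells, and SREBF1 had log2 ratios between -0.08 and 0.00. The factors themselves thus differed little between S and G1 cells. Among the surrounding lists, TMEM97, the sigma-2 receptor of the endoplasmic reticulum that binds NPC1, had 113.1, 97.7, 109.2 and 113.3 CPM in S cells, against 47.0, 44.0, 52.5 and 54.1 CPM in G1 cells. It overlaps IFT20 on the opposite strand. PDSS1, which builds the ubiquinone side chain, and ELOVL2, an elongase of polyunsaturated fatty acids, were also called higher in S. The calls in S were 1 of 10 uptake and efflux genes (TMEM97), 1 of 8 isoprenoid genes, 1 of 14 other lipid genes and 0 of 9 oxidation genes. Beside the 7.43% of all genes, these counts are not read as particular to the lists.

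S and G2/M cells also held more UMIs than G1 cells, with medians of 33980 to 41888 in S, 35461 to 43960 in G2/M and 30453.5 to 38183 in G1, so the phase ratios were taken again within terciles of UMI total. Within them, S over G1 for the sterol sum lay between 1.14 and 1.30 in every combination of set and tercile, and for the fatty acid sum between 1.08 and 1.20. Split by UMI total alone, the sterol sum in the top tercile was 0.969, 0.979, 0.949 and 0.966 of that in the bottom tercile, and the fatty acid sum 0.953, 1.002, 0.929 and 0.952. These ratios lay between 0.929 and 1.002. G1 cells made up 11.1% to 22.3% of the top and 26.6% to 43.1% of the bottom terciles. Within G1 cells the sterol ratios by UMI total were 0.928, 0.979, 0.920 and 0.946, and the fatty acid ratios 0.920, 0.955, 0.902 and 0.983. By mitochondrial share, a sign of cell quality, the branches parted. The sterol sum in the top tercile was 0.925, 0.881, 0.83 and 0.83 of that in the bottom tercile in sets 1 to 4, and the fatty acid sum 1.076, 1.030, 1.002 and 0.995. The sterol sum was thus lower in cells with a high mitochondrial share in every set. The totals behind CPM hold the mitochondrial UMIs that split the cells. With totals that left out mitochondrial and ribosomal protein genes, the median log2 ratio over sets was -0.13 for sterols, against -0.23, and 0.11 for fatty acids, against 0.02. In G1 cells alone the sterol ratios were 0.930, 0.888, 0.807 and 0.762. EBP had log2 ratios of -0.40, -0.28, -0.49 and -0.38 by mitochondrial share, while HMGCS1 had 0.31, 0.11 and 0.06 in sets 1, 2 and 4 and lay near 0 in set 3. Of all genes, 0.903% were called higher and 1.93% lower with mitochondrial share, and no member was called. By UMI total 1.79% were called higher and 1.75% lower, and again no member. Single members still moved with UMI total, in both directions. EBP had log2 ratios of 0.45, 0.31, 0.40 and 0.41 in sets 1 to 4, while HMGCS1 had -0.47, -0.19, -0.49 and -0.53. What the mitochondrial share reflects in these cells was not tested.

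**Figure D3:**
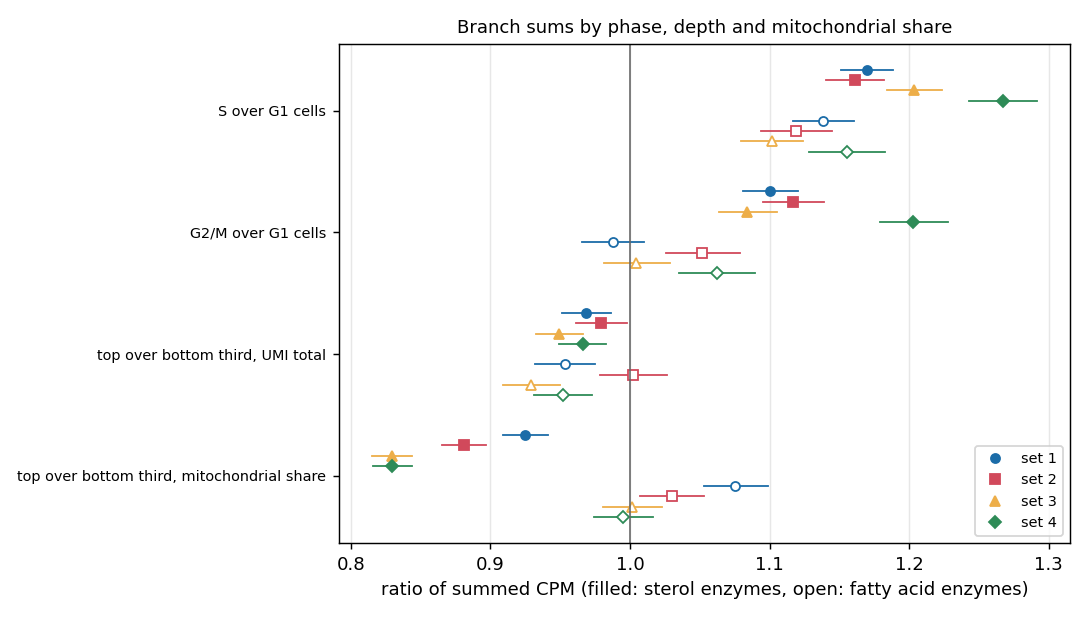
Ratio of summed CPM in S over G1 cells, G2/M over G1 cells and top over bottom terciles by UMI total and by mitochondrial share. Filled symbols are the sterol sum and open symbols the fatty acid sum, each symbol is 1 barcode set, and bars are exact 95% intervals for counting error. The sterol sum lies between 1.16 and 1.27 in S over G1 cells and between 0.83 and 0.925 by mitochondrial share.

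Per cell, the sterol score, taken as the UMIs of the 18 enzymes in a cell thinned to 10000 UMIs, had a median of 11, 10, 11 and 12 in sets 1 to 4. From the 5th to the 95th percentile it ran from 5 to 22 in set 1, 5 to 19 in set 2, 5 to 22 in set 3 and 5 to 21 in set 4. Its variance was 2.17, 1.88, 2.23 and 2.11 times its mean, where counting error alone gives about 1. The fatty acid score had medians of 7, 6, 8 and 7 and a variance of 1.30, 1.28, 1.31 and 1.36 times its mean. Single cells therefore varied more in the sterol than in the fatty acid score, also within a phase: in G1 cells the same quotients were 2.28, 1.96, 2.33 and 2.18 for sterols and 1.26, 1.17, 1.35 and 1.30 for fatty acids. Without thinning, the medians per 10000 UMIs were 11.3, 10.5, 11.5 and 11.9 for sterols and 7.46, 6.45, 7.70 and 7.48 for fatty acids.

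**Figure D4:**
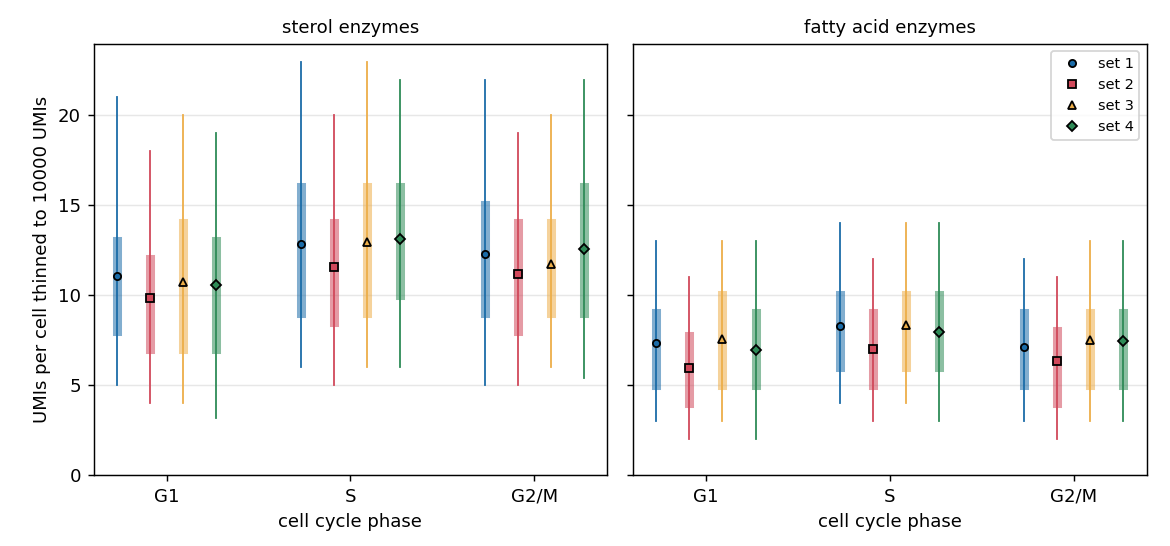
UMIs of the sterol enzymes (left) and of the fatty acid enzymes (right) per cell thinned to 10000 UMIs, by phase and barcode set. Symbols are means, thick bars run between the quartiles and thin lines from the 5th to the 95th percentile of cells. Means of the sterol score lie between 9.84 and 11.1 in G1 cells and between 11.6 and 13.1 in S cells, and the ranges of cells overlap widely.

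To see whether the sterol enzymes moved as a group, the list was split in pathway order into its odd-numbered genes (ACAT2, MVK, MVD, FDPS, SQLE, CYP51A1, MSMO1, HSD17B7 and SC5D) and its even-numbered genes (HMGCS1, PMVK, IDI1, FDFT1, LSS, TM7SF2, NSDHL, EBP and DHCR7). Across thinned cells, the sums of the odd and even genes had Pearson correlations of 0.304, 0.277, 0.344 and 0.333 in sets 1 to 4 (1778 to 2139 cells per set), and 0.354, 0.313, 0.345 and 0.389 in G1 cells. The fatty acid list split in the same way gave 0.0980, 0.122, 0.0853 and 0.131. The sterol sum correlated with the fatty acid sum at 0.187, 0.155, 0.222 and 0.182 and with the sum of the control genes at 0.277, 0.196, 0.245 and 0.261. These correlations describe cells that share a library, in sparse counts, and the fatty acid list holds fewer UMIs per cell. Without thinning, and with the log of UMIs per 10000, the medians over sets were higher, at 0.51 for the sterol list, against 0.32 with thinning, 0.21 for the fatty acid list, against 0.11, and 0.33 between the branches, against 0.18.

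Cells were next ranked by the odd-numbered sterol genes, and genes outside that list were compared between the top and the bottom tercile of G1 cells. A tercile held 148 to 267 cells, and the ranking sum was at least 5 UMIs in the top and at most 3 in the bottom tercile, with 46 to 114 cells per set at the upper limit. The sum of the even-numbered sterol genes was 743, 645, 735 and 710 CPM in the top tercile of sets 1 to 4, against 542, 477, 502 and 509 CPM in the bottom tercile. The ratios were 1.37 (1.32 to 1.42), 1.35 (1.29 to 1.42), 1.47 (1.40 to 1.53) and 1.39 (1.32 to 1.47). The fatty acid sum gave 1.16, 1.15, 1.22 and 1.31 and the sum of the control genes 1.39, 1.35, 1.42 and 1.43. The median log2 ratio of all measured genes lay between 0.03 and 0.07. Median UMI totals of the terciles were close, at 30307.5 and 30614 in the top and bottom terciles of set 4, while the median mitochondrial share was 6.85% and 7.96% in the same terciles and lower in the top tercile of every set. Its part in these ratios was not tested.

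Single genes of the pathway stood at the head of the table in this ranking. Of 8 measured even-numbered sterol enzymes 4 were called higher (HMGCS1, IDI1, LSS and DHCR7), against 0.297% of 7413 genes, and none was called lower, against 0.121%. HMGCS1 had 27.2, 31.2, 44.3 and 39.5 CPM in the top tercile, against 10.8, 18.6, 18.7 and 20.4 CPM in the bottom tercile, and ranked 1 of the 7413 genes by the lowest ratio over the 4 sets. IDI1 had 98.2, 118, 144 and 121 CPM in the top tercile, against 54.9, 63.2, 70.9 and 77.5 CPM in the bottom tercile, and ranked 2. INSIG1 ranked 3, with 173, 200, 190 and 187 CPM in the top tercile, against 110, 130, 123 and 112 CPM in the bottom tercile. For these genes every set had its top tercile above its bottom tercile. DHCR7 ranked 4, with 68.7, 58.0, 71.8 and 76.5 CPM against 41.7, 41.1, 43.5 and 41.5 CPM in the bottom tercile. STARD4 was also called, with 19.3, 31.1, 25.7 and 20.7 CPM in the top tercile, against 11.9, 21.9, 14.1 and 15.7 CPM in the bottom tercile.

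The other even-numbered sterol enzymes followed less closely. FDFT1 had log2 ratios of 0.38, 0.32, 0.46 and 0.36, just short of a call in set 2, and EBP 0.27, 0.40, 0.65 and 0.55. PMVK had 0.14, 0.22, -0.06 and 0.12, and NSDHL ranged from 0.07 to 0.87. None of 9 fatty acid enzymes was called. ACSL3 came closest to a uniform shift with 0.20, 0.32, 0.35 and 0.46, FADS2 had 0.23, 0.32, 0.86 and 0.75, SCD 0.32, 0.15, 0.34 and 0.59, and ACACA lay below 0 in sets 1 and 3. The SREBP factors were not called: SREBF2 had 28.2, 23.5, 35.9 and 30.0 CPM in the top tercile and 25.2, 23.2, 32.5 and 30.0 CPM in the bottom tercile, and SREBF1, SCAP and INSIG2 were below 0 in at least 1 set. Of the surrounding lists TMEM97 alone was called, with 58.5, 51.4, 59.9 and 67.2 CPM in the top tercile, against 39.4, 40.0, 42.3 and 48.8 CPM in the bottom tercile. In cells of all phases the called sterol enzymes were HMGCS1, IDI1, EBP and DHCR7, against 1.35% of genes, but there G1 cells made up 11.3% to 25.8% of the top and 33.5% to 48.9% of the bottom terciles.

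With the ranking turned round, so that the even-numbered genes ordered the G1 cells, all 8 measured odd-numbered sterol enzymes were called higher, against 0.216% of 7413 genes, and none was called lower, against 0.0135%. In cells of all phases 7 of the 8 were called (ACAT2, MVD, FDPS, SQLE, MSMO1, HSD17B7 and SC5D), against 0.243% of genes. In G1 cells the ranks by the lowest ratio were 1 (MSMO1), 3 (ACAT2), 4 (MVK), 5 (SC5D), 6 (SQLE), 7 (MVD), 8 (FDPS) and 9 (HSD17B7), and INSIG1 had rank 2. MSMO1 had 45.6, 48.1, 56.0 and 49.5 CPM in the top tercile, against 21.9, 28.7, 24.0 and 28.3 CPM in the bottom tercile. SQLE, an enzyme that limits the flow into sterols, had 106, 73.1, 115 and 102 CPM in the top tercile, against 77.5, 49.9, 68.7 and 65.2 CPM in the bottom tercile. MVK had 25.03, 20.6, 26.3 and 22.4 CPM in the top tercile, against 15.3, 14.1, 14.8 and 15.2 CPM in the bottom tercile. The sum of the odd-numbered genes in the top over the bottom tercile was 1.49 (1.42 to 1.56), 1.44 (1.37 to 1.53), 1.69 (1.60 to 1.78) and 1.54 (1.44 to 1.64). No fatty acid enzyme was called in this ranking, and of the control genes INSIG1 alone was. STARD4 had 16.9, 29.4, 24.0 and 21.0 CPM in the top tercile, against 13.8, 23.4, 14.9 and 12.4 CPM in the bottom tercile, short of a call in sets 1 and 2. Set beside the promoters, each gene read in the G1 ranking that leaves it out, 8 of 10 measured sterol genes with at least 2 CCAAT boxes in a window were called higher, as were 2 of 3 with fewer. NSDHL and EBP, with 5 and 3 boxes, were not called, nor was PMVK, with none, while LSS and SC5D were called with 1 box each.

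**Figure D5:**
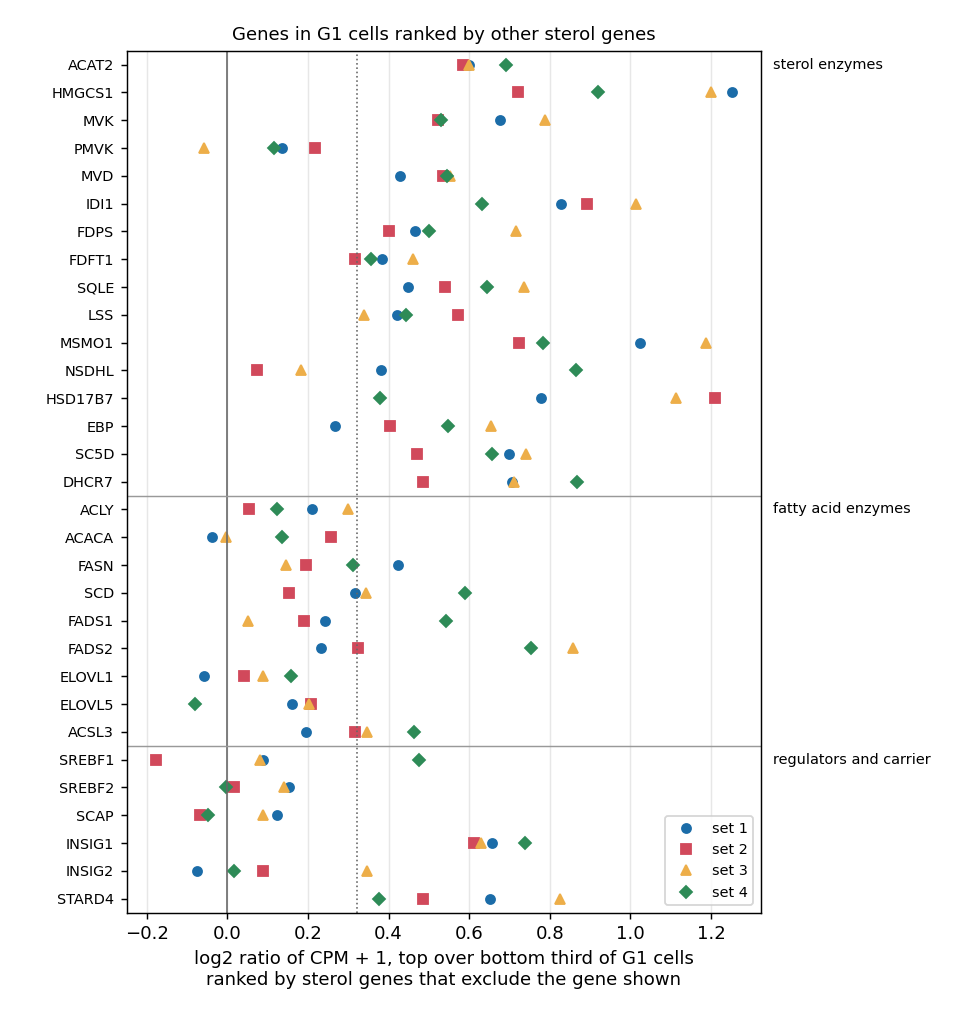
Log2 ratio of CPM + 1 in the top over the bottom tercile of G1 cells for the 31 measured members, each ranked by sterol genes that exclude the gene shown. Odd-numbered sterol genes come from the ranking by even-numbered genes, and all other genes from the ranking by odd-numbered genes. Each symbol is 1 barcode set, the solid line marks 0 and the dotted line 0.32. Most sterol enzymes, INSIG1 and STARD4 lie beyond the dotted line in all sets, while PMVK and the SREBP factors lie nearer to 0. The fatty acid enzymes are spread between the sets, and FADS2 reaches 0.86 in set 3.

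Outside the members, the genes most like the sterol branch were taken as the 10 of 2151 genes with at least 50 CPM in every set that had the highest lowest-of-4-sets ratio in the G1 ranking by odd-numbered genes. C14orf1, now called ERG28, a scaffold of the sterol demethylation complex, came first, with 125.3, 105.5, 91.4 and 91.9 CPM in the top tercile, against 87.8, 79.7, 65.8 and 62.7 CPM in the bottom tercile. AKR1A1, an aldehyde reductase, followed with log2 ratios of 0.39, 0.40, 0.50 and 0.60, and its chromosomal neighbour PRDX1, a peroxiredoxin, had 0.34, 0.39, 0.42 and 0.55. TMEM97 was also among them. The others named were BRIX1, a ribosome assembly factor that overlaps RAD1 on the opposite strand, GMNN, a licensing inhibitor of replication, TMPO, a nuclear lamina protein, UBE2T, a ubiquitin-conjugating enzyme of DNA repair, and STMN1, a microtubule regulator. GMNN and TMPO belong to the phase scores, and UBE2T and STMN1 are genes of dividing cells, so this likeness includes genes of the cell cycle although the cells were all assigned to G1. Of the genes named, UBE2T had the log2 ratios 0.31, 0.35, 0.29 and 0.32, and its levels in cells of all phases differed more, by 0.47 to 0.71.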

How the data were processed

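RNA of WM239A and 3 sublines was read as 3′ ends of single cells with the Chromium version 2 kit, per the labels' protocols. The submitters' processing notes list the tools Cell Ranger 3.0.0 and Seurat 3.0 and, as builds, hg19 and mm10, with no role for any of them. The authors deposited UMI counts per gene and cell. Every cell had 3001 to 6999 detected genes. No columns of other samples were present.

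Members and lists were chosen with earlier results of these data known. For each barcode suffix the counts were added up and scaled to 1000000 (CPM). Genes with 10 CPM in at least 1 set (7421) were compared on the log2(CPM + 1) scale, and a gene was called when it was apart by at least 0.32 in the same direction in all 4 sets. Cells were thinned to 10000 UMIs for scores and phases (scanpy 1.11.5), which left out 6, 1, 1 and 1 cells of sets 1 to 4. Poisson and conditional binomial intervals (scipy 1.17.1) are exact. The comparisons between sets, phases and terciles were run on simulated counts. The tercile run used a single set without thinning, so it does not cover the calls made over all sets. No doublet caller was run, doublets were left in and free RNA was not removed, so phase calls and scores contain it. TMM factors came from edgeR 4.0.16. Overlapping genes were read from GENCODE annotation on GRCh38 and promoter windows from RefSeq. Beside all members, the text names up to 4 genes of each surrounding list and 9 of the 10 genes most like the sterol branch; 1 is not reported here. The alternatives, listed in the closing section, changed scaling, filters, cells, depth and the way members were combined.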

Additional observations from a re-analysis of the deposited data

Results flagged for a closer look

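The 34 values that were compared over the sets (31 measured members and 3 branch sums) were searched for a set that stood apart, taken as a gap to the nearest set that takes up more of the whole range than Dixon's 95% critical value. By chance alone this is met in about 1 in 20 such groups of 4, and 4 of the 34 values met it. The share of all genes that met it was not counted, so the number is not read as particular to these genes. No label makes the sets replicates of a group.

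ACACA had 30.4 CPM in set 1, against 24.2 to 24.5 CPM elsewhere, and the gap was 0.958 of the range. FASN, the next enzyme of fatty acid synthesis, stood apart in the other direction, with set 1 at 75.6 CPM, against 97.9 to 99.98 CPM elsewhere (0.913 of the range). MVK stood apart in set 2, at 20.2 CPM against 23.7 to 24.0 CPM in the others (0.899), and in G1 cells its log2 difference between sets 4 and 2 was 0.12, against 0.25 in all cells. The fatty acid sum was also apart in set 2, at 661 CPM against 761 to 777 CPM in the others (0.863).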

How the results depend on the processing

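Of 105 alternatives for the summary values, 66 kept the value near the main one, 38 moved it and 1 reversed it. Of 170 for single members between sets, 132 kept it, 38 moved it and none reversed a called value. All 102 for single members in S over G1 cells kept it. There, kept means that the median over sets moved by no more than the widest counting margin of any set. A call could still be lost, as for FADS1 and FADS2. No paired analysis was possible because replicate numbers are missing where every line is a single library. Totals without mitochondrial and ribosomal protein genes raised the median gene by 0.47, 0.51, 0.53 and 0.51 (log2) in sets 1 to 4. The cause of each shift below was not tested.

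All genes 2-fold apart numbered 198 with a pseudocount of 10 CPM, 1012 with no filter and 126 at 50 CPM, against 434, and those 1.5-fold apart 659, 2920 and 414, against 1282. Members 1.5-fold apart numbered 1 with that pseudocount and 2 at 50 CPM, against 4. Between sets 4 and 2 the sterol log2 difference was 0.066 in G1 cells, against 0.18. Between sets 3 and 2 the fatty acid difference was 0.26 without mitochondrial and ribosomal protein genes, 0.26 in G1 cells, 0.27 with thinning, 0.18 as a median and 0.21 without ACSL3, against 0.23. For the control genes, sets 4 and 1 differed by 0.25 with TMM, 0.21 without mitochondrial and ribosomal protein genes, 0.12 in G1 cells, 0.14 as a median and 0.10 without INSIG1, against 0.18.

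Without mitochondrial and ribosomal protein genes in the totals, sterol S over G1 was 0.21 (0.25 in the main values), G2/M over G1 0.10 (0.15), fatty acid S over G1 0.14 (0.17) and its G2/M over G1 -0.0071 (0.04, reversed). In the same totals the ratio by mitochondrial share was -0.13 for sterols (-0.23) and 0.11 for fatty acids (0.02). Without FDFT1, sterol S over G1 was 0.33 and G2/M over G1 0.20. Fatty acid enzymes called in S numbered 0 in those totals and 1 in cells with at most 10% mitochondrial UMIs, against 2. In G1 cells the sterol ratio by UMI total was -0.094, against -0.05. Without thinning, on a log scale, the correlations were 0.51 for the sterol lists, 0.21 for the fatty acid lists and 0.33 between the branches, against 0.32, 0.11 and 0.18. In all cells, ranking by even-numbered genes gave 0.57 for the other sterol genes (0.44 in the main ranking), 0.19 for fatty acids (0.25) and 0.38 for control genes (0.50), and 4 equal parts in place of terciles 0.53, 0.31 and 0.58.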
